A study of Homo sapiens with 18 samples.

Results

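The genes of the death receptor pathway were followed in HT29, a human colorectal adenocarcinoma cell line, and in HTOXAR3, its oxaliplatin (OXA) resistant derivative, which was selected by long culture with the drug while the dose was stepped up. The 10 genes were the ligand *TNFSF10*, the receptors *TNFRSF10A*, *TNFRSF10B*, *FAS* and *TNFRSF1A*, the decoy receptors *TNFRSF10C* and *TNFRSF10D*, the adaptor *FADD*, the protease *CASP8* and its regulator *CFLAR*. They were chosen by name, as the array probes carrying one of these 10 gene names, out of 36204 names on the array. Each line was profiled on 3 one-colour arrays for each of 3 conditions, which were untreated cells, cells after 24 h of OXA, and cells after 24 h of OXA plus Curcumin. The OXA doses, set to the IC50 of each line, were 10 µM for HT29 and 30 µM for HTOXAR3, and comparing the treated lines therefore compares doses too. Curcumin, a plant polyphenol used here as an inhibitor of the transcription factor NF-κB, was added at 10 µM in both lines. The study describes the untreated cells as vehicle-treated in its results and as without treatment in its methods. Curcumin was dissolved in ethanol, and whether cells given OXA alone received ethanol too is not stated. No group received Curcumin alone among the samples analysed here, and HTOXAR3 is 1 resistant line derived from 1 parental line. The arrays measured RNA from whole cultures, in which fewer cells of a kind and less RNA per cell cannot be told apart.

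Death receptors are members of the tumour necrosis factor receptor family that carry a death domain inside the cell. When a ligand such as TRAIL, encoded by *TNFSF10*, binds its receptor, the adaptor FADD joins the receptor to caspase-8, which becomes active and starts apoptosis. The protein c-FLIP, encoded by *CFLAR*, resembles caspase-8 without its activity and limits this step, while decoy receptors bind the ligand without passing on a full death signal. Colorectal cancer cells commonly carry the TRAIL receptors, and several genes of the pathway are known targets of p53 or of NF-κB.

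The 10 genes were read by 18 probes in 45 spots per array. *CFLAR* had 4 probes, *FAS* and *TNFSF10* 3 each, *CASP8* 2, and the other 6 genes 1 each. The brightest probe over all arrays stood for its gene. By accession, 17 of the 18 probes matched the current RefSeq symbol of their gene, and 1 *CASP8* probe had no match. Positions are those of the array's own annotation on GRCh37, which names the gene and its transcripts but not the exon. *CASP8* and *CFLAR* lie on chromosome 2, *TNFSF10* on chromosome 3, *FAS* on chromosome 10, *FADD* on chromosome 11 and *TNFRSF1A* on chromosome 12. For genes with several probes, the place of a probe matters to the results, and 3 of them are shown as 60-base sequences in lower case on the strand of the gene. The first lies at chr10:90774148-90774207 in *FAS* and is the *FAS* probe that shares no base with the one used, the second lies at chr2:202136256-202136315 and is the further *CASP8* probe, and the third lies at chr2:202000731-202000790 and is the *CFLAR* probe used, all on the plus strand.
FAS A_33_P3332112: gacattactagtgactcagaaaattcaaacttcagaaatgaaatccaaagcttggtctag
CASP8 A_24_P148499: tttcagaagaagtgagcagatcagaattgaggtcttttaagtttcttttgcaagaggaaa
CFLAR A_23_P209394: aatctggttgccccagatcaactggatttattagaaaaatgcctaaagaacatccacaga

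Between 52.4% and 63.6% of spots were well above background on each array, and arrays of 1 group correlated at 0.985 or more. Of the 10 genes, 9 were well above background on all 18 arrays, and *TNFRSF10C* was on 13. Of 8 markers of colorectal epithelium, 6 were well above background on all 18 arrays, *CEACAM5* on 16 and *CDX2* on 10. Levels of these markers moved with the groups. *VIL1* had group means of 12.06 in untreated HT29 and 13.12 with either treatment, and of 10.45 to 10.69 in HTOXAR3. *CDX2* went from 7.1 in untreated HT29 to 6.05 with OXA and 5.87 with OXA plus Curcumin, and from 4.93 to 3.8 and 3.54 in HTOXAR3, and *CEACAM5* from 6.72 to 4.57 and 5.73 and from 5.52 to 5.32 and 4.7. Of 4 fibroblast markers, *COL1A2* and *COL3A1* were well above background on none, *DCN* on 1 and *COL1A1* on 10, the last with group means from 3.73 in untreated HT29 to 5.21 and 5.25 in HT29 and HTOXAR3 after OXA. Of 4 leukocyte markers, 3 were on all 18, *PTPRC* at log2 intensities of 5.96 to 6.51, and of the endothelial markers, *CDH5* was on all 18 and *PECAM1* on 4. The part of these differences between groups in the results below was not tested. The arrays came from 3 slides, the first of which held only an untreated and an OXA-treated HT29 array. Levels below are log2 intensities after quantile normalization, differences are log2 differences of group means with their standard error (SE), and a gene was called at an adjusted p below 0.05 (limma, Benjamini-Yekutieli, BY, over all gene names) and a fold change above 1.2. Levels of different genes come from different probes and cannot be set against each other. Shares of all names include names not well above background, so they are not shares among names of like signal.

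**Figure D1:**
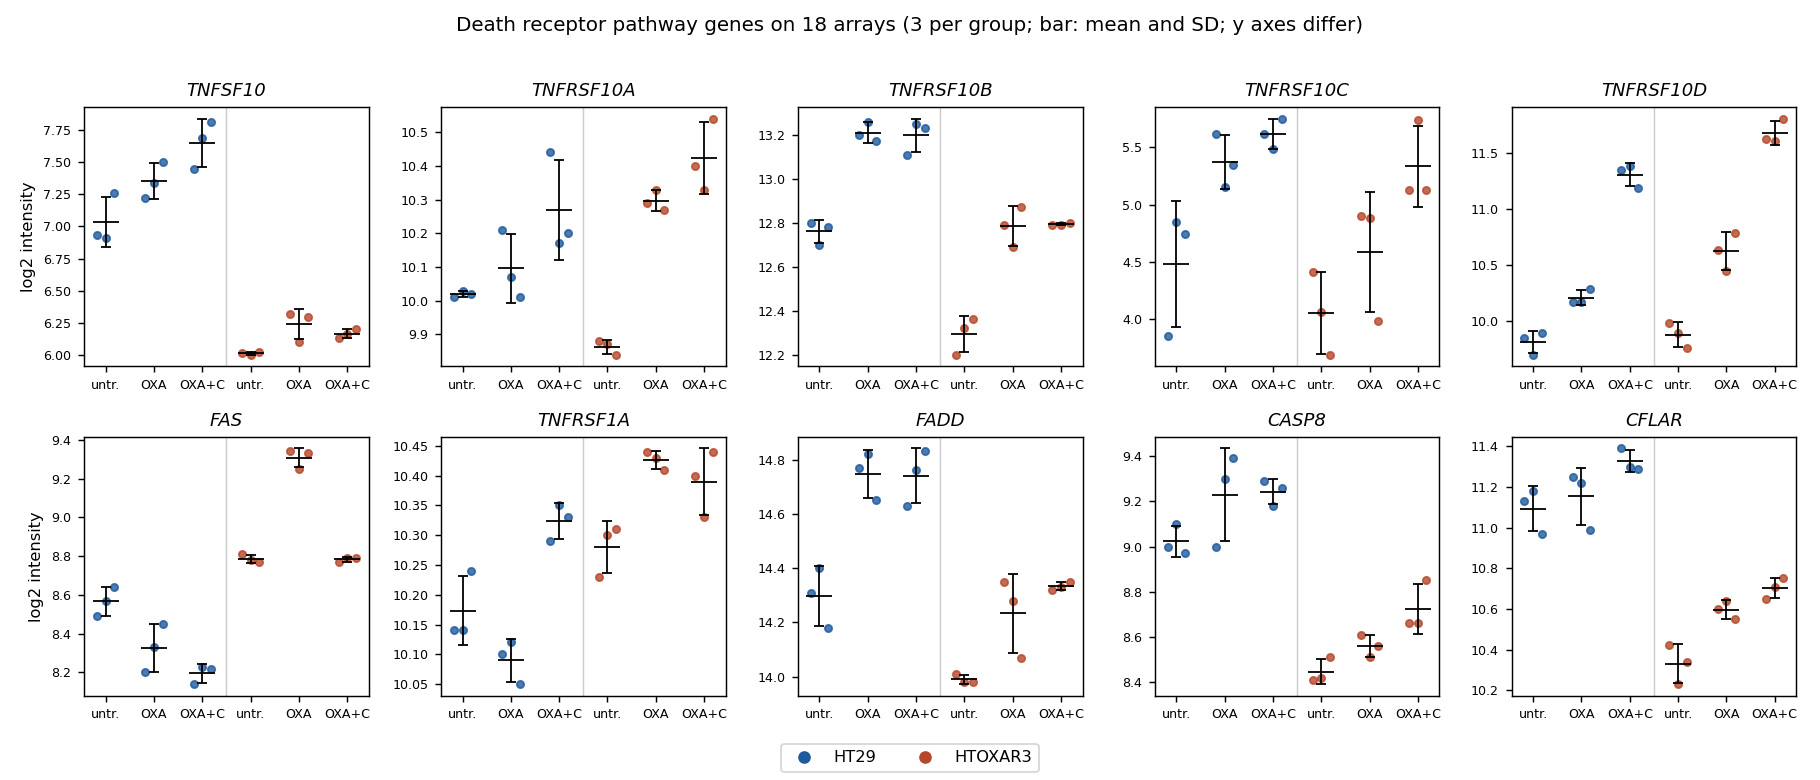
Log2 intensity of each of the 10 genes on the 18 arrays, with 1 point per array, a bar for the mean and whiskers for the SD of 3 arrays. The 3 groups of HT29 are blue and those of HTOXAR3 red (untr. is untreated, OXA+C is OXA plus Curcumin). The vertical axes differ between genes. *TNFRSF10D* climbed from means of 9.82 and 9.88 in untreated cells to 11.31 and 11.68 with OXA plus Curcumin.

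The first comparison asked how the resistant line differed from its parent before any drug. Of the 10 genes, 4 were called and all 4 were lower in HTOXAR3, where 5.28% of all names were called lower and 11.5% in either direction. They were the ligand gene *TNFSF10*, the receptor gene *TNFRSF10B*, *CASP8* and *CFLAR*. Values of the lines did not overlap for 7 of the 10, against 32.6% of all names. The median difference of the 10 genes was -0.37 and that of all names -0.03.

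*TNFSF10* showed the largest of these differences. Untreated HT29 read 6.93, 6.91 and 7.26, and untreated HTOXAR3 6.01, 6.00 and 6.02. All HTOXAR3 arrays thus lay below all HT29 arrays, by 1.02 (SE 0.11, 2.03-fold lower, BY adjusted p = 0.000114 with limma). At a normexp offset of 50 in the background correction the difference was -0.66, still called. The probe next to it gave a difference of -1.50, also called, and the third probe, which was well above background on 10 arrays, gave -0.35 and was not called.

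*CFLAR* read 11.13, 11.18 and 10.97 in untreated HT29 against 10.42, 10.23 and 10.34 in HTOXAR3, a difference of -0.76 (SE 0.081, limma BY adjusted p = 8.74e-05). *CASP8* read 9.0, 9.10 and 8.97 against 8.41, 8.42 and 8.51, a difference of -0.58 (SE 0.091, limma BY adjusted p = 0.00355). The further *CASP8* probe, 15.6 kb away, was lower in HTOXAR3 too, by -0.70, but it is the probe without a RefSeq match. Thus the protease gene and the gene of its inhibitor were both lower in the resistant line, with no overlap between arrays.

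*TNFRSF10B*, the gene of the TRAIL receptor DR5, read 12.80, 12.70 and 12.78 in HT29 and 12.20, 12.32 and 12.36 in HTOXAR3. The difference was -0.47 (SE 0.064, limma BY adjusted p = 0.000913), and the groups did not overlap. The 6 genes that were not called differed by -0.31 (*FADD*) to 0.22 (*FAS*), leaving aside *TNFRSF10C*, which was not well above background on any untreated HTOXAR3 array. For *FAS* the interval of the difference ran from 0.081 to 0.36 (95%), and for the decoy gene *TNFRSF10D* from -0.15 to 0.27. *FADD* lay at 13.98 to 14.01 in HTOXAR3 and at 14.18 to 14.40 in HT29 without overlap, yet its adjusted p was 0.154 with limma. When only the 6 untreated arrays entered the fit, none of the 4 genes was called, with differences of the same size. Here and below, the share of all names called in such a fit is not given. Calls lost in it cannot be read as particular to these genes.

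OXA for 24 h raised *TNFRSF10B* in both lines. In HT29, 2 of the 10 genes were called, *TNFRSF10B* and *FADD*, both higher, where 8.33% of all names were called higher and 15.9% in either direction. In HTOXAR3, 4 were called, *FAS*, *TNFRSF10A*, *TNFRSF10B* and *TNFRSF10D*, again all higher, where 5.31% of all names were called higher and 10.2% in either direction. Values of treated and untreated arrays did not overlap for 6 of the 10 genes in HT29 (34.6% of all names) and for 9 in HTOXAR3 (34.3%). The median difference of the 10 genes was 0.26 in HT29 and 0.35 in HTOXAR3, and that of all names -0.01 and 0.01. With only the arrays compared in the fit, none of the 10 genes was called after OXA in either line, the adjusted p of *TNFRSF10B* becoming 0.155 in HT29 and 0.201 in HTOXAR3 (limma).

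*TNFRSF10B* reached 13.20, 13.26 and 13.17 in HT29 after OXA, a rise of 0.45 (SE 0.064, limma BY adjusted p = 0.00112). In HTOXAR3 it reached 12.79, 12.69 and 12.87, a rise of 0.49 (SE 0.064, limma BY adjusted p = 0.000881). The treated HTOXAR3 arrays thus came to the level of untreated HT29 and overlapped with it. The responses of the lines differed by 0.05, with an interval from -0.15 to 0.24 (95%).

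*TNFRSF10A*, the gene of the TRAIL receptor DR4, moved from 9.88, 9.87 and 9.84 to 10.29, 10.33 and 10.27 in HTOXAR3, a rise of 0.44 (SE 0.078, limma BY adjusted p = 0.012). In HT29 it read 10.01, 10.03 and 10.02 before and 10.21, 10.07 and 10.01 after OXA, and the difference of 0.08 was not called. The difference between these responses, 0.36 (SE 0.11), was not called either (limma BY adjusted p = 1). The call in HTOXAR3 was lost when untreated array 2 or 3 or OXA array 1 or 2 was left out, with adjusted p from 0.0528 to 0.0692 (limma).

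The decoy receptor gene *TNFRSF10D* went from 9.98, 9.89 and 9.76 to 10.64, 10.45 and 10.79 in HTOXAR3, a rise of 0.75 (SE 0.097, limma BY adjusted p = 0.00083). In HT29 it went from 9.85, 9.70 and 9.89 to 10.17, 10.17 and 10.29. The groups did not overlap there, but the difference of 0.39 was not called (limma BY adjusted p = 0.0804). With Benjamini-Hochberg adjustment this difference was called (limma adjusted p = 0.00726). The responses of the lines differed by 0.36, with an interval from 0.065 to 0.65 (95%) and a limma BY adjusted p of 1.

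*FADD*, the adaptor, read 14.31, 14.40 and 14.18 in untreated HT29 and 14.77, 14.82 and 14.65 after OXA, a rise of 0.45 (SE 0.082, limma BY adjusted p = 0.00813). In HTOXAR3 it read 14.01, 13.98 and 13.98 before and 14.35, 14.28 and 14.07 after, a difference of 0.24 that was not called. The call in HT29 was lost without untreated array 3 or OXA array 2, and when arrays were scaled to their 75th percentile (0.37 with limma BY adjusted p = 0.0511 for the processed signal, 0.35 with 0.126 for normexp).

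*FAS* was the only one of the 10 genes whose response to OXA was called different between the lines. HTOXAR3 read 8.81, 8.78 and 8.77 untreated and 9.34, 9.25 and 9.33 after OXA, a rise of 0.52 (SE 0.066, limma BY adjusted p = 0.000727). The overlapping probe rose there by 0.65 and was called, while the probe that shares no base with the one used gave 0.33 and was not called (limma BY adjusted p = 0.489). HT29 read 8.49, 8.57 and 8.64 untreated and 8.20, 8.33 and 8.45 after OXA, a difference of -0.24 (SE 0.066) that was not called (limma BY adjusted p = 0.159). Without OXA array 3 it was -0.30 and called lower (limma BY adjusted p = 0.0404). All treated arrays lay above the untreated ones in HTOXAR3 and below them in HT29.

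The difference between the *FAS* responses was 0.76 (SE 0.093, 1.69-fold, limma BY adjusted p = 0.00358), where 0.608% of all names were called higher and 1.01% in either direction for this interaction. It stayed called without each of the 12 arrays in turn, with values from 0.70 to 0.82. It was not called when only these 12 arrays entered the fit (limma BY adjusted p = 0.0704). The other *FAS* probes gave 0.72 and 0.63 and were not called on their own over all probes (limma BY adjusted p = 0.16 and 0.43). The first of them had no value on 1 of the 3 HT29 arrays after OXA, so that its mean there rests on 2. It shares 32 bases with the probe used and is not independent of it, while the second, whose sequence is shown above, lies 397 bases upstream.

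**Figure D2:**
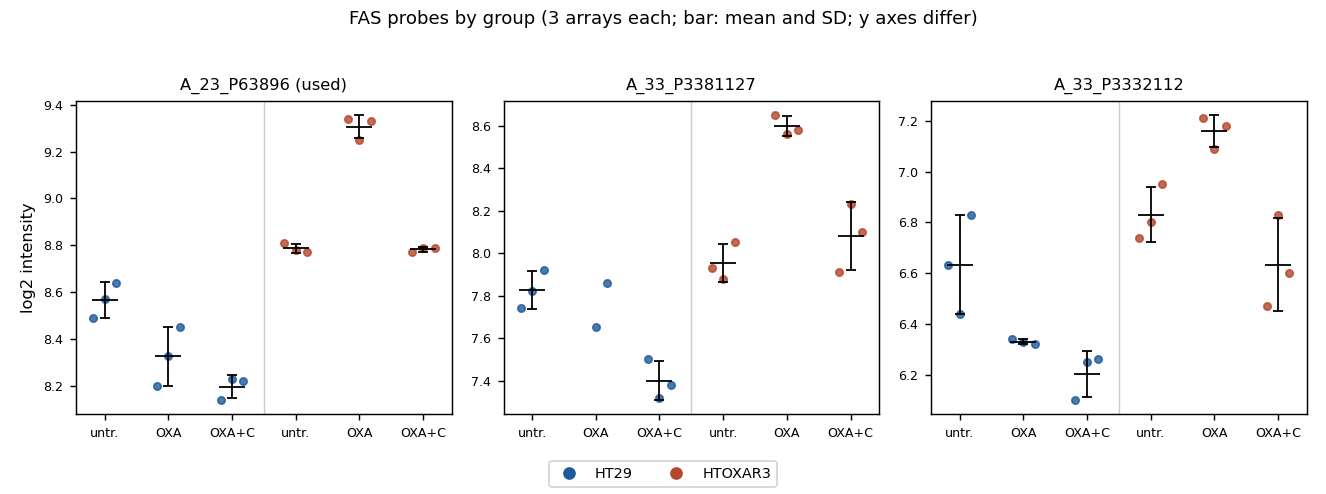
Log2 intensity of *FAS* by its 3 probes on the 18 arrays, with points for arrays, bars for means and whiskers for the SD of 3 arrays. A_33_P3381127 has no value on 1 HT29 array after OXA and shows 2 points there, without a bar or whisker. The vertical axes differ between probes. In HTOXAR3, the mean of each probe was highest after OXA, at 9.31, 8.60 and 7.16, and in HT29 lowest with OXA plus Curcumin, at 8.20, 7.40 and 6.20.

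With Curcumin added to OXA, the comparison with untreated cells called 5 of the 10 genes in HT29, 4 higher and 1 lower, where 9.56% of all names were called higher, 9.02% lower and 18.6% in either direction. In HTOXAR3 it called 4, all higher, where 8.82% of all names were called higher and 17.5% in either direction. Values did not overlap for 10 of the 10 genes in HT29 (38.8% of all names) and for 9 in HTOXAR3 (38.2%). *TNFRSF10D* and *TNFRSF10B* were called higher in both lines, *TNFSF10* and *FADD* in HT29, and *TNFRSF10A* and *CFLAR* in HTOXAR3, while *FAS* was called lower in HT29. These comparisons use the same untreated arrays as those with OXA alone and are not independent of them.

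Among the 9 genes well above background on all arrays, *TNFRSF10D* had the largest difference from untreated cells in both lines. HT29 read 11.35, 11.39 and 11.19 with OXA plus Curcumin, 1.49 above untreated cells (SE 0.097, 2.82-fold, limma BY adjusted p = 4.73e-07). HTOXAR3 read 11.63, 11.61 and 11.81, 1.80 above untreated cells (SE 0.097, 3.49-fold, limma BY adjusted p = 1.22e-07). In both lines the groups were ordered untreated, OXA, OXA plus Curcumin without overlap. With only the arrays compared in the fit, *TNFRSF10D* was still called in both lines for OXA plus Curcumin against untreated cells, as the only one of the 10 genes.

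Other receptor genes moved less. *TNFRSF10B* was higher by 0.43 in HT29 (limma BY adjusted p = 0.0012) and by 0.50 in HTOXAR3 (0.000336), each with SE 0.064. *TNFRSF10A* read 10.40, 10.33 and 10.54 in HTOXAR3, a rise of 0.56 (SE 0.078, limma BY adjusted p = 0.00077). In HT29, at 10.44, 10.17 and 10.20, its difference was 0.25 and was not called, and the difference between the lines, 0.31, was not called either (limma BY adjusted p = 1).

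*FAS* fell in HT29, to 8.14, 8.23 and 8.22, a difference of -0.37 (SE 0.066, limma BY adjusted p = 0.00634). Its other probes both gave -0.43, called for the overlapping one (limma BY adjusted p = 0.035) and not for the separate one (0.073). In HTOXAR3 it read 8.77, 8.79 and 8.79, which overlapped with untreated cells. That difference was -0.003 with an interval from -0.14 to 0.14 (95%). The difference between the lines was 0.36 (SE 0.093, limma BY adjusted p = 0.538).

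The ligand gene *TNFSF10* read 7.45, 7.69 and 7.82 in HT29, above all untreated arrays by 0.62 (SE 0.11, limma BY adjusted p = 0.00675). In HTOXAR3 it stayed between 6.00 and 6.32 over all 9 arrays and was called in none of the drug comparisons. The lines' responses differed by -0.47 (SE 0.16), which was not called (limma BY adjusted p = 1). Over the alternatives beside left-out arrays this difference ran from -0.56 to -0.18. The other *TNFSF10* probes gave 0.51 and -0.11 in HT29 and were not called. With the mean of its 3 probes in place of the brightest, the rise in HT29 was 0.34 and was lost (limma BY adjusted p = 1).

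*FADD* was higher by 0.44 in HT29 (SE 0.082, limma BY adjusted p = 0.00824), and this call was lost without untreated array 3 or OXA plus Curcumin array 3, and at 0.30 and 0.31 under both scalings to the 75th percentile. In HTOXAR3 *FADD* read 14.32, 14.33 and 14.35, above all untreated arrays by 0.34, which was just short of a call (limma BY adjusted p = 0.0558). It was called there at offsets of 16 and 50, with Benjamini-Hochberg adjustment and when names not well above background were left out, and the difference between the lines was not called (limma BY adjusted p = 1). *CFLAR* was higher by 0.38 in HTOXAR3 (SE 0.081, limma BY adjusted p = 0.0292). Leaving out 1 array ended this call for untreated array 2 or 3 and for each OXA plus Curcumin array, with adjusted p from 0.0659 to 0.179 (limma).

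Against OXA alone, the addition of Curcumin called 1 of the 10 genes in HT29, where 3.14% of all names were called higher and 5.53% in either direction, and 2 in HTOXAR3, 1 higher and 1 lower, where 4.43% were called higher, 4.41% lower and 8.83% in either direction. *TNFRSF10D* was the gene called in both lines, higher by 1.10 in HT29 (SE 0.097, 2.15-fold, limma BY adjusted p = 6.91e-05) and by 1.06 in HTOXAR3 (SE 0.097, 2.08-fold, limma BY adjusted p = 6.08e-05). *FAS* was called in HTOXAR3, lower by -0.52 (SE 0.066, limma BY adjusted p = 0.000888). Its other probes gave -0.52 and -0.53 there and were both called. With only the arrays compared in the fit, none of these calls of the addition remained, the adjusted p of *TNFRSF10D* becoming 0.133 in HT29 and 0.0857 in HTOXAR3 (limma). In HT29 the difference for *FAS* was -0.13 with an interval from -0.27 to 0.014 (95%), and the difference between the lines, -0.39 (SE 0.093), was not called (limma BY adjusted p = 0.792).

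*TNFRSF10B* was not called for the addition, its differences being -0.01 in HT29 (95% interval -0.15 to 0.13) and 0.01 in HTOXAR3 (-0.13 to 0.15). Both intervals lie below its rise of 0.45 or 0.49 after OXA alone. Values of the groups with and without Curcumin did not overlap for 3 of the 10 genes in HT29 (26.3% of all names) and for 5 in HTOXAR3 (31.9%). None of the 10 genes was called by limma for a difference between the lines in the response to OXA plus Curcumin (0.856% of all names) or in the addition of Curcumin (0.135%). At an unadjusted p below 0.05 these were 4 and 3 genes, where 14.4% and 9.74% of all names passed, and with Benjamini-Hochberg adjustment 1 and 0, where 3.44% and 0.892% of all names were called.

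**Figure D3:**
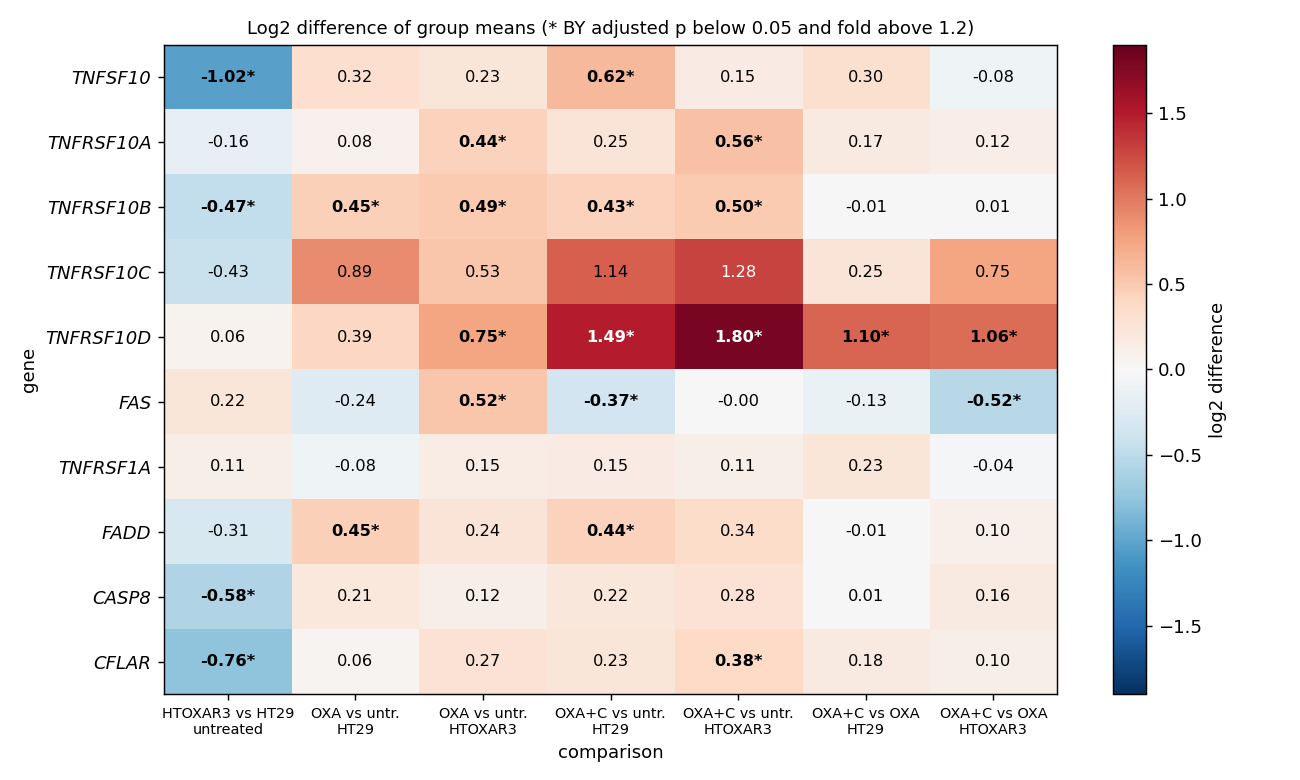
Log2 difference of group means for each of the 10 genes (rows) in 7 comparisons (columns), red for higher and blue for lower in the group named first, with a star where the gene was called (OXA+C is OXA plus Curcumin). *TNFRSF10C* was dim, and its differences from untreated HTOXAR3 rest on arrays not well above background. Called values run from -1.02 for *TNFSF10* between the untreated lines to 1.80 for *TNFRSF10D* in HTOXAR3.

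The 4 probes of *CFLAR* did not respond alike. All 4 were lower in untreated HTOXAR3 than in HT29, by -0.76, -0.67, -0.51 and -0.34, the first 3 of them called. The probe used is annotated to 1 transcript, and the others, which start 24.5 to 31.2 kb downstream of it, to 4 transcripts each. After OXA the probe used differed by 0.06 in HT29 and 0.27 in HTOXAR3 and was called in neither.

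By contrast, the probe A_24_P120115 rose after OXA by 0.77 in HT29 (limma BY adjusted p = 0.0011 over all probes) and by 0.87 in HTOXAR3 (0.0008). A_21_P0001952 rose by 0.71 (0.00015) and 0.74 (0.00022). The fourth, A_23_P156807, gave -0.25 and -0.44 and was not called. With OXA plus Curcumin, the first pair was called higher in both lines, by 0.54 and 0.46 in HT29 and by 0.72 and 0.38 in HTOXAR3.

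Within an array, the log2 ratio of A_24_P120115 to the probe used moved from a mean of -3.70 in untreated HT29 to -2.99 after OXA, and from -3.45 to -2.85 in HTOXAR3. The ratios of the groups did not overlap in either line. An exact two-sided permutation test of 3 against 3 arrays gave p = 0.1 for each, the smallest it can give. The ratio was chosen after its values were seen, and the test adds no support to it.

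**Figure D4:**
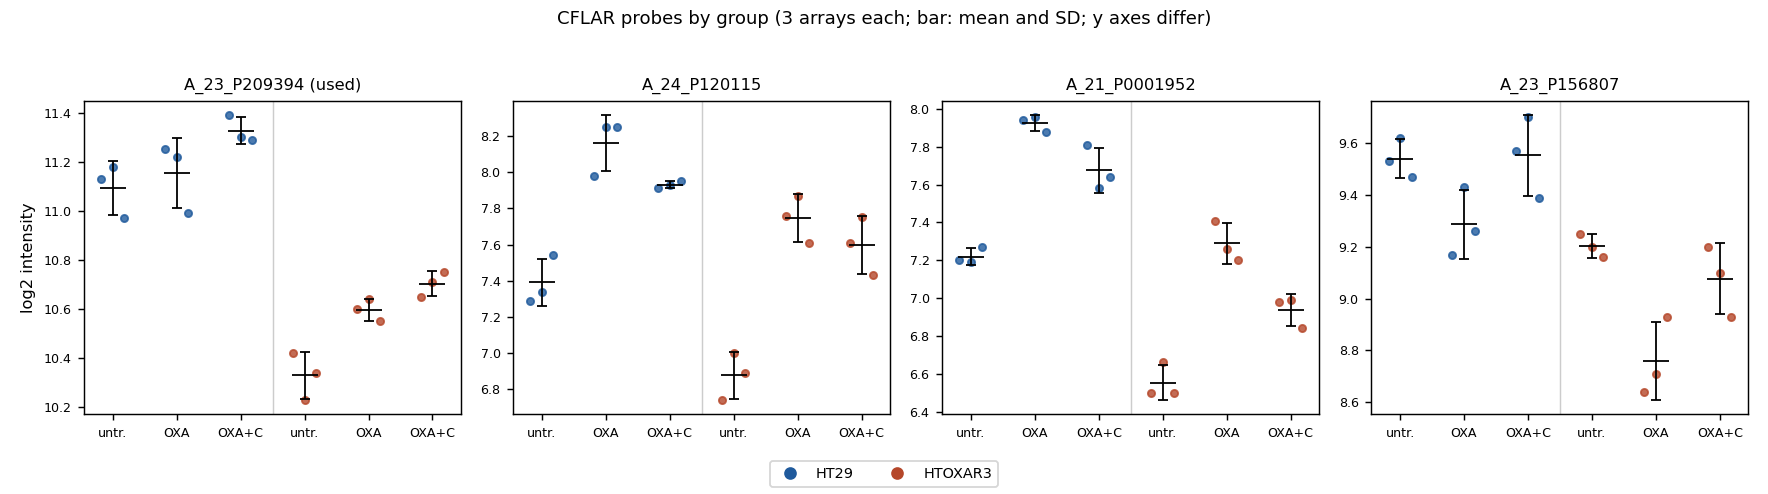
Log2 intensity of *CFLAR* by its 4 probes on the 18 arrays, with points for arrays, bars for means and whiskers for the SD of 3 arrays. The vertical axes differ between probes. After OXA the mean of A_24_P120115 went from 7.39 to 8.16 in HT29 and from 6.88 to 7.74 in HTOXAR3, while that of the probe used went from 11.09 to 11.15 and from 10.33 to 10.60.

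*TNFRSF1A*, the gene of the main receptor for tumour necrosis factor, was called in none of the 10 comparisons. Its 18 values lay between 10.05 and 10.44, and its group means between 10.09 in HT29 after OXA and 10.43 in HTOXAR3 after OXA, the narrowest range of the 10 genes. The decoy gene *TNFRSF10C* was not called either, but was dim, with values of 3.69 to 5.75. It was well above background on 0 of 3 untreated HTOXAR3 arrays and on 3 of 3 with OXA plus Curcumin, where it read 5.13, 5.74 and 5.13. The group means as measured were 5.33 with OXA plus Curcumin and 4.05 untreated, a difference that was not called (limma BY adjusted p = 0.0537). In HT29 it read 3.85, 4.85 and 4.74 untreated, 5.62, 5.15 and 5.35 after OXA, and 5.62, 5.49 and 5.75 with OXA plus Curcumin, so that all treated arrays lay above all untreated ones. The differences were 0.89 (limma BY adjusted p = 0.487) and 1.14 (0.109). Untreated HT29 array 1, at 3.85, was not well above background. The difference after OXA ran from 0.33 to 1.53 over the alternatives beside left-out arrays. For OXA plus Curcumin the value depended on the background correction, being 0.44 at an offset of 50 and 1.899 with the processed signal in HT29, and 0.44 and 2.12 in HTOXAR3. These differences with OXA plus Curcumin were called in both lines at offsets of 16 and 50 and with Benjamini-Hochberg adjustment. They were also called when names that were not well above background were left out. *TNFRSF10C* passes that filter only through treated groups, where it is high, so that call adds no support.

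The 4 drug comparisons with untreated cells, in which 10.2% to 18.6% of all names were called, share the untreated arrays of each line. *TNFRSF10B* was called in 4 of 4, *TNFRSF10D* in 3, *FAS*, *TNFRSF10A* and *FADD* in 2 each, and *TNFSF10* and *CFLAR* in 1. *CFLAR* is counted here by the probe used, while its probes A_24_P120115 and A_21_P0001952 were called higher in all 4 comparisons. *CASP8* was called in none of them.

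The rest of the pathway was read from a list of 51 further genes, 50 of which are on the array by name and 46 of which were well above background in a group. The shares of all names set beside them also cover names that were not. OXA called 22 of these 50 in HT29, 16 higher and 6 lower, which is 44% against 15.9% of all names, and 16 in HTOXAR3, 12 higher and 4 lower, or 32% against 10.2%. OXA plus Curcumin called 22 in HT29, or 44% against 18.6% of all names, and 18 in HTOXAR3, or 36% against 17.5%. The addition of Curcumin called 5 in each line, 10% against 5.53% of all names in HT29 and 8.83% in HTOXAR3, the latter shares lying close together. The untreated lines differed in 12, 6 in each direction, or 24% against 11.5%. The 12 include *FASLG*, the gene of the FAS ligand, which was well above background on 0 arrays, and the 18 include *TNFRSF11B*, which was so on 2 of 3 arrays in both groups compared. Of the 40 called results given with values for these genes by the rule, 16 were still called with only the arrays compared in the fit and 24 were not. Those still called were *BIRC3* and *TNFSF15* with OXA and with OXA plus Curcumin in both lines, *FAIM* and *CYCS* with OXA plus Curcumin in both lines, *TNFRSF6B* with both treatments in HT29, and *FAIM* and *CASP10* between the untreated lines. None of the calls given below for the addition of Curcumin, and none for *TRADD*, *DEDD2*, *RIPK3*, *TNFAIP3* or *TRAF2*, remained in that fit.

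Genes of the receptor complex and its ubiquitin machinery included the largest rise. *BIRC3*, which encodes the ubiquitin ligase cIAP2 and is a target of NF-κB, rose by 2.75 in HT29 and 2.58 in HTOXAR3 after OXA, and differed by -0.19 and -0.0040 when Curcumin was added, which was not called. *TNFAIP3*, the gene of the NF-κB inhibitor A20, rose by 1.31 and 1.01 after OXA, the latter call being lost without 5 of the 6 arrays in turn and with the slide or the replicate number as a block (limma BY adjusted p = 0.0516 and 0.0517), and at an offset of 50 the rises were 0.76 and 0.64. *TRADD*, the adaptor of TNFRSF1A, was lower in untreated HTOXAR3 by -0.44 and rose with the addition of Curcumin by 0.42 in HT29 and 0.46 in HTOXAR3.

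Of 6 other ligand genes, 3 were called after OXA in each line, all higher, where 8.33% of all names were called higher in HT29 and 5.31% in HTOXAR3. *TNFSF15* rose by 1.61 in HT29 and 1.27 in HTOXAR3. *TNF* was higher by 0.80 in untreated HTOXAR3 than in HT29, where it was well above background on 2 of 3 arrays, and this value ran from 0.32 at an offset of 50 to 1.38 with the processed signal. Among 8 other receptors and decoys, *TNFRSF11B*, which encodes the soluble TRAIL-binding decoy osteoprotegerin, was lower by -1.21 in untreated HTOXAR3, and by -0.65 at an offset of 50. *TNFRSF6B*, the gene of a soluble decoy for the FAS ligand, fell by 0.79 in HT29 after OXA, a difference of -0.45 at an offset of 50, and its response differed between the lines by 0.87 (limma BY adjusted p = 0.0392). *TRAF2*, an adaptor of receptor complexes, differed by 0.44 in the same way (0.0287), but by 0.15 with the mean of its probes, where it was not called. These calls of *TNFRSF6B* and *TRAF2* were lost without 10 and 11 of the 12 arrays in turn.

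Of 10 genes for death effector domain proteins and regulators that bind receptors, *FAIM*, an inhibitor of apoptosis through FAS, was higher by 0.77 in untreated HTOXAR3. It fell after OXA by 0.67 in HT29 and 0.61 in HTOXAR3, and by a further 0.45 and 0.40 with Curcumin, the last call being lost without 3 of the 6 arrays in turn. *DEDD2* rose with the addition of Curcumin, by 0.56 and 0.75. *CASP10*, a close relative of *CASP8*, was higher by 1.10 in untreated HTOXAR3 by its brightest probe but lower by -0.69 with the mean of its probes, so that its direction is not settled.

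In the executioner arm, 6 of 10 genes were called after OXA in HT29 and 5 in HTOXAR3, 3 of them lower in each line, where 15.9% and 10.2% of all names were called. *CYCS*, the gene of cytochrome c, was lower with OXA plus Curcumin by -0.76 in HT29 and -0.52 in HTOXAR3. Of 3 necroptosis genes, *RIPK3*, whose kinase product starts this form of death, rose with the addition of Curcumin by 0.61 in HT29 and 0.72 in HTOXAR3. Both calls were lost with only the arrays compared in the fit, and that in HT29 also, at 0.46, with the mean of its probes.

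**Figure D5:**
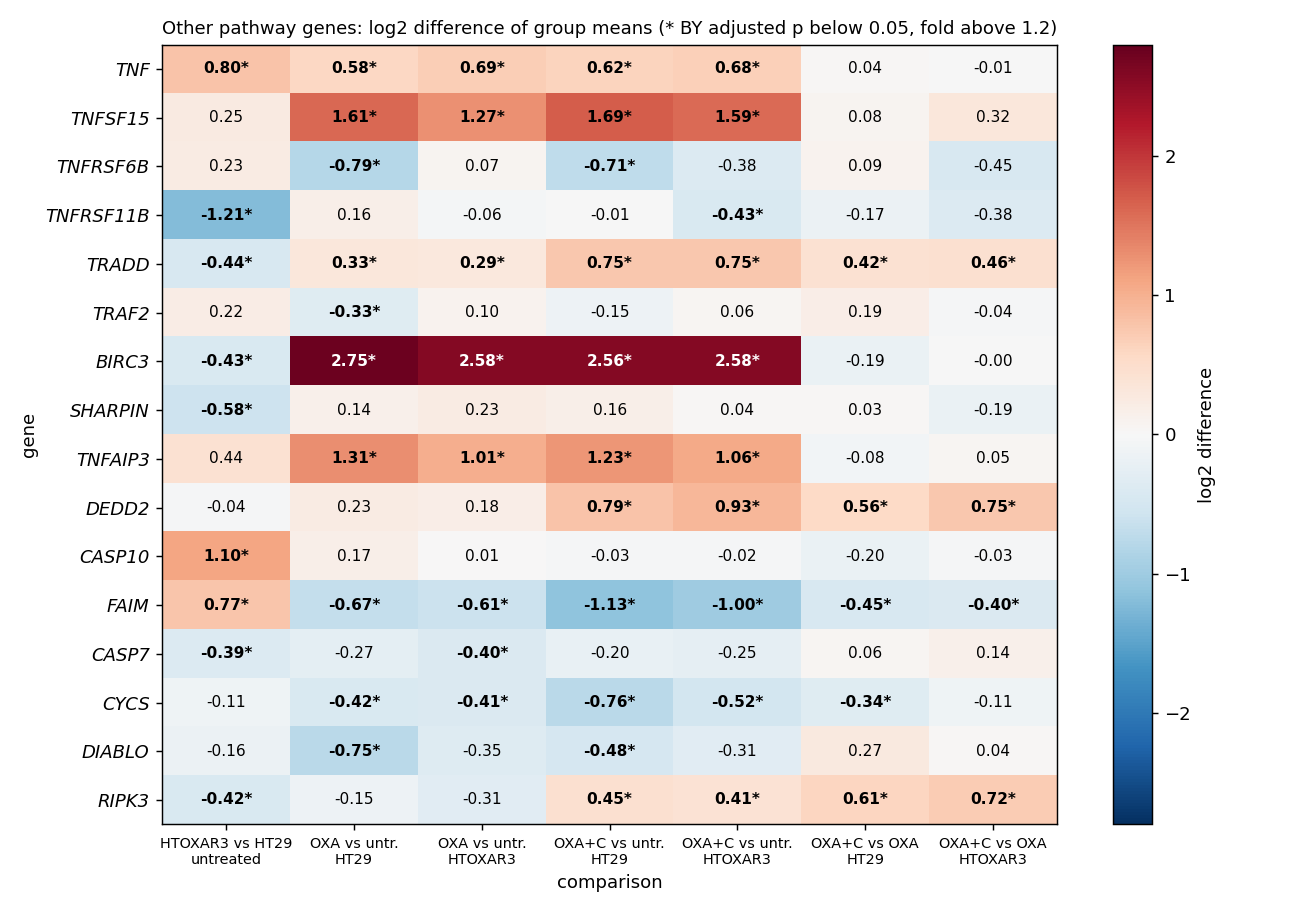
Log2 difference of group means of the other pathway genes named by the rule (rows) in 7 comparisons (columns), red for higher and blue for lower in the group named first, with a star where the gene was called. *BIRC3* has the largest values, 2.75 and 2.58 after OXA.

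The pattern of *TNFRSF10D* over the 6 groups was compared with that of the 3834 names that were well above background on all 18 arrays and had group means spanning at least 1. Over these 6 group means, the names most like it were *SEC11C*, *ZNF432*, *PCYT1A*, *SESN2* and XLOC_004924, with Pearson correlations of 0.986 to 0.989. The most opposite were *PM20D2* (-0.986) and *HOXB9* (-0.984). The points are 6 group means that share arrays and normalization, and these correlations are a description only.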

How the data were processed

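Total RNA of 18 cultures was labelled with Cy3 and hybridised to one-colour Agilent human v2 arrays, and images were read with Agilent Feature Extraction 10.7.3.1. The authors deposited the mean intensity and median local background intensity of each spot, which are linear and not normalized between arrays. The processed intensity deposited beside them, background-subtracted by the software, served for an alternative. A deposited table of processed values carries no probe or gene name and was not used here. Normexp background correction, quantile normalization, limma and the Benjamini-Yekutieli adjustment follow the methods of the study. The normexp offset of 0 was chosen here, since none is stated, as were leaving out control spots, setting outlier-flagged spots to missing, averaging replicate spots on the log2 scale, and keeping the brightest of the 50599 probes for each of 36204 names. A model with 6 group terms was fitted to 18 arrays with limma 3.58.1 in R 4.3.3 and checked on simulated arrays. Calls needed a Benjamini-Yekutieli adjusted p below 0.05 over all names and a fold change above 1.2. Figures were drawn with Python 3.11.15 and matplotlib 3.10.9. The number of arrays, 3 per group, limits the precision. The study calls them biological replicates.

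The 10 genes, the list of 51 other pathway genes and the tests were chosen with earlier results of these data known. Values are given singly for the 10 genes. Of the others, those with values are called genes that all arrays of a compared group show well above background, up to 3 rises and 3 falls by size in a comparison. Differences of *BIRC3* with the addition of Curcumin fall outside this rule and were chosen after their values were seen, as was the ratio of *CFLAR* probes. Same-numbered arrays were checked as pairs by the correlation of their deviations from group means. Each pair was over 0.1 only for OXA in HT29 (0.117 to 0.242) and for Curcumin added in HTOXAR3 (0.109 to 0.195), where all 3 pairs shared a slide. The alternatives were normexp offsets 16 and 50, scaling to the 75th percentile (processed signal or normexp), the mean of all probes or each probe alone, a filter on dim probes, Benjamini-Hochberg adjustment, a fold minimum of 2, a fit on only the groups compared, the slide or the replicate number as a block, and each array left out.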

Additional observations from a re-analysis of the deposited data

Results flagged for a closer look

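The response to OXA was called different between HTOXAR3 and HT29, by a test of the interaction of line and treatment, for 3 genes named in the report, 1 of the 10 death receptor genes and 2 of the other pathway genes. *FAS* responded more positively in HTOXAR3 by 0.76 on the log2 scale (SE 0.093, limma BY adjusted p = 0.00358). This call was lost at a fold minimum of 2 and with only the compared groups in the fit (adjusted p = 0.0704, limma), and the other 2 *FAS* probes were not called on their own. *TNFRSF6B* did so by 0.87 (SE 0.14, limma BY adjusted p = 0.0392), a call lost without 10 of the 12 arrays in turn and under 7 of the other 12 alternatives. These were both scalings to the 75th percentile (adjusted p = 0.213 and 0.485, limma), the mean of all probes (0.159), a fold minimum of 2, only the compared groups in the fit (0.287), the slide as a block (0.0869) and the replicate block (0.0604). At an offset of 50 it was called at 0.50. *TRAF2*, which encodes an adaptor of receptor complexes, did so by 0.44 (SE 0.069, limma BY adjusted p = 0.0287), a call lost without 11 of the 12 arrays in turn and under 3 of the other 12 alternatives, which were the mean of its probes, with which the difference was 0.15 (adjusted p = 1, limma), a fold minimum of 2 and only the compared groups in the fit (adjusted p = 0.226, limma). OXA was given at different doses to the lines, so that line and dose cannot be told apart in these differences.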

How the results depend on the processing

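For the 23 called results of the 10 genes, the 12 alternatives beside left-out arrays gave 276 values, of which 232 were still called, 44 were not and 0 changed sign. Leaving out 1 array gave 144 values, 131 still called, 13 not and 0 with another sign. The slide or the replicate number as a block changed no count of called genes among the 10. With the replicate block, which was no shown pairing outside the comparisons named above, the counts were 4 for the untreated lines, 2 and 4 for OXA in HT29 and HTOXAR3, 5 and 4 for OXA plus Curcumin, 1 and 2 for its addition, and 1, 0 and 0 for the interactions.

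With only the compared groups in the fit, 0 of the 10 genes were called between the untreated lines, after OXA in either line, for the addition of Curcumin in either line and for the interaction with OXA, and 1 was for OXA plus Curcumin in each line. This fit has fewer arrays to estimate the spread. The share of all names called in it is not given, so these counts cannot be read as particular to the 10 genes. At a fold minimum of 2 the counts were 1 between the untreated lines, 0 for OXA in either line and for its interaction, and 1 for OXA plus Curcumin in each line and when Curcumin was added in HTOXAR3. The share of all names at that fold minimum is not given, so these counts cannot be read as high or low. With Benjamini-Hochberg adjustment they were 5 between the untreated lines (17% of all names called), 4 and 5 for OXA in HT29 and HTOXAR3 (21.9% and 16.6%), 6 and 7 for OXA plus Curcumin (25% and 23.5%) and 1 for its interaction (3.44%). OXA in HT29 gave 1 under both scalings to the 75th percentile. For other changed counts the cause was not tested. Leaving out 1 array gave 4 to 4 between the untreated lines, 1 to 3 and 3 to 4 for OXA in HT29 and HTOXAR3, and 4 to 5 and 3 to 4 for OXA plus Curcumin.

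*CASP10* between the untreated lines turned to -0.69 with the mean of its probes. Differences near 0 changed sign. *FAS* with OXA plus Curcumin in HTOXAR3 became 0.013 for the processed signal and 0.0083 for normexp, both at the 75th percentile, and ran from -0.012 to 0.0099 without 1 array. *TNFRSF10B* with the addition of Curcumin ran from -0.039 to 0.031 in HT29 and from -0.037 to 0.052 in HTOXAR3. Scaling the processed signal moved the median of all names to -0.19 for OXA in HTOXAR3 from 0.01, and changes of the 10 genes stand relative to such shifts. Weak signal over background limits *TNFRSF10C*.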
